A study of Caenorhabditis briggsae with 10 samples.

Results

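The 100 genes with the most RNA-seq reads in unstressed worms of the nematode Caenorhabditis briggsae were followed through extreme cold in 2 strains and in their hybrid. Counts per gene were divided by each library's total and multiplied by 1000000 (CPM), and the 100 of 23175 genes with the highest mean CPM over the 4 parental control libraries were taken. The members were thus chosen by their control CPM, and every comparison with a control is a description of genes already known to be high there. The libraries after cold and both hybrid libraries took no part in the choice. CPM is not divided by transcript length, so the order is one of reads and a long transcript ranks higher than a short one at the same number of molecules.

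The parents were AF16, a tropical strain, and HK104, a temperate one, and the hybrid is labelled AF16/HK104. All groups carry the genotype label WT. Synchronised worms at the mid or late L4 larval stage were grown for 24 hours at 20 °C and collected at once (control), or then kept for 60 hours at 4 °C before collection (cold), per the labels. No control was kept for the same 60 hours without cold, so each cold response includes the elapsed time. Each strain gave 2 control and 2 cold libraries, with 15360979 to 18362210 counts per library, and the hybrid gave 1 library per condition. In the hybrid, 5334965 reads of the control and 6008659 of the cold library were assigned to an allele. RNA came from worms homogenised whole, so fewer cells of a type and less RNA per cell cannot be told apart. Nothing in the labels says that replicates came from separate cultures, and p-values measure the spread between these libraries only. Per the labels' descriptions, a suffix of unstated meaning marks the first cold library in both strains and no other sample, and the lane given for the second AF16 cold library differs from every other lane given.

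In nematodes that are becoming adult hermaphrodites, a small number of genes gives a large part of the messenger RNA. They typically include the vitellogenins, yolk proteins made in the intestine and taken up by oocytes, the ribosomal proteins and elongation factors of the translation machinery, and structural proteins of muscle and cuticle. Yolk protein transcripts follow the reproductive state of the worm. The gene IDs used here are not paired with names in the sources used here, so no member is tied to any of these classes, and members are given by ID or by their rank in control worms.

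Mean control CPM of the members ran from 1254 at WBGene00039806, rank 100, to 21830 at rank 1, with a median of 1804. The gene just outside the choice, WBGene00040875, had 1253. Every member had at least 2599 counts in every parental library, and all 100 passed the filter on low counts that left 13503 genes to test. The 100 highest genes of the AF16 controls alone and of the HK104 controls alone shared 95 genes. Control replicates lay close together, with a median absolute log2 difference over the members of 0.108 in AF16 and 0.0752 in HK104. The cold replicates lay farther apart, at 0.353 and 0.364, and 37 members in AF16 and 23 in HK104 differed between cold replicates by more than 0.5 on the log2 scale.

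The members held a smaller part of all counts after cold than without it, in both strains. In AF16 their share was 26.97% and 25.43% in the control libraries and 22.00% and 20.28% in the cold libraries. In HK104 it was 25.29% in both control libraries and 19.14% and 21.90% in the cold libraries. No cold library reached the lowest control library of its strain. The mean share was 26.2% ± 1.09 and 21.1% ± 1.22 in AF16 and 25.3% ± 0.00512 and 20.5% ± 1.95 in HK104 (control and cold, SD, n = 2 each). The share fell by 5.06 percentage points in AF16 and fell by 4.77 in HK104. The 100 highest genes of the cold libraries, 92 of them members, give the mirrored choice. Their share fell by 3.46 percentage points in AF16 and fell by 3.35 in HK104.

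In both strains 7 members were called lower after cold (FDR below 0.05, edgeR's quasi-likelihood test with Benjamini-Hochberg adjustment over all genes tested). They were picked by their fall in these same libraries, so how the parental decrease divides between them and the other members is a description. Their summed share was 7.66% and 7.44% in AF16 controls and 1.25% and 1.04% after cold. In HK104 it was 7.03% and 6.48% in controls and 2.05% and 1.56% after cold. The share of these 7 fell by 6.40 percentage points in AF16 and fell by 4.95 in HK104. The other 93 members together held 18.6% ± 0.934 and 20.0% ± 1.06 in AF16 and 18.5% ± 0.386 and 18.7% ± 2.30 in HK104 (control and cold, SD, n = 2 each).

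**Figure D1:**
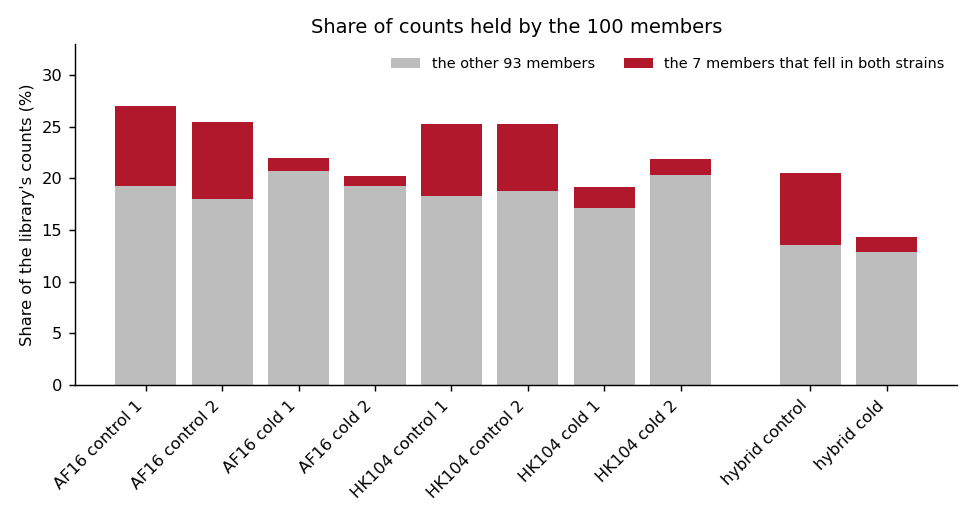
Share of each library's counts, in percent, held by the 100 members, for the 8 parental libraries and the 2 hybrid libraries (reads assigned to an allele). Red marks the 7 members that fell in both strains and grey the other 93: the red part shrinks from 7.66% and 7.44% to 1.25% and 1.04% in AF16, while the grey part stays between 17.1% and 20.7% in all parental libraries.

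Of the 100 members, 9 were lower and 0 higher after cold in AF16, and 8 were lower and 0 higher in HK104. Over all genes tested, 20.1% were called lower and 2.78% higher in AF16, and 16.6% and 4.54% in HK104. With an unadjusted p below 0.05, 12 members were lower and 0 higher in AF16, and 9 were lower and 0 higher in HK104. The DESeq2 test called 9 lower and 0 higher in each strain. For the unadjusted threshold and the DESeq2 test, here and in the comparisons below, the share over all genes tested was not counted. The 7 that fell in both strains compare with 13.1% of all genes tested. The control libraries chose the members, so nothing is read from these counts against the background. The 100 genes next in order had 17 lower and 0 higher calls in AF16 and 19 lower and 1 higher in HK104.

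Whether any member was called higher varied with the cold libraries left out, and not every such fit called a rise in the strain concerned. Without the second cold library of AF16, 24 members were called in AF16, 15 of them higher. Without the first cold library of both strains, 27 were called in AF16 (14 higher) and 14 in HK104 (2 higher). Without the second cold library of both, 39 were called in AF16 (24 higher) and 43 in HK104 (7 higher). In these fits the remaining cold library is assumed to vary like the other groups. The share called over all genes tested was not counted for these fits, so the counts have no background beside them. The 7 members that fell in both strains held their call and direction in every one of 224 repeats, 16 alternatives for each member and strain. These repeats refit the counts by which the 7 were picked, so they are not independent and show only how processing bears on the calls.

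By rank in control worms, the order that the choice used, 5 of the 10 highest members fell in both strains, 0 of the 40 ranked 11 to 50, and 2 of the 50 ranked 51 to 100. Over all genes tested, 13.1% were called lower in both strains. The split by rank is a description, and nothing is read from it. The highest member, WBGene00024796, had 22577 and 22013 CPM in AF16 controls and 3740 and 3404 after cold. In HK104 it had 22226 and 20504 CPM in controls and 7585 and 6103 after cold. The controls of the strains overlapped, every cold library lay below every control library, and both HK104 cold libraries lay above both AF16 cold libraries. Its log2 fold change was -2.73 ± 0.28 in AF16 (SE, FDR 0.000134, 6.63-fold lower) and -1.67 ± 0.27 in HK104 (SE, FDR 0.00157, 3.17-fold lower).

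The member ranked 2, WBGene00035047, had much the same levels. In AF16 its CPM was 20110 and 20812 without cold and 2916 and 2544 with it. In HK104 the values were 20196 and 18671, then 6206 and 4587. Again the strains overlapped without cold and did not overlap after it. The log2 fold change was -2.996 ± 0.28 in AF16 (SE, FDR 9.97e-05) and -1.87 ± 0.27 in HK104 (SE, FDR 0.000870). These are falls of 7.98-fold and 3.67-fold.

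WBGene00034777, rank 3, had the largest fall of any member in AF16. Its values were 15022 and 13679 CPM in AF16 controls and 1778 and 1407 after cold, a 9.63-fold decrease (log2 -3.27 ± 0.28, SE, FDR 6.26e-05). In HK104 it had 12332 and 10901 CPM in controls and 2694 and 2036 after cold (log2 -2.32 ± 0.27, SE, FDR 0.000221). Over the cold libraries it stood at rank 41.

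WBGene00034800, rank 5, had closely placed replicates in all groups. It went from 8876 and 8699 to 1081 and 1096 CPM in AF16 and from 7067 and 6613 to 1414 and 1245 CPM in HK104. The log2 fold changes were -3.09 ± 0.26 and -2.38 ± 0.25 (SE, FDR 6.23e-05 and 0.000136). WBGene00030260, rank 99, had the largest fall of any member in HK104 and the lowest place after cold, rank 753. It had 1432 and 1390 CPM in HK104 controls and 300.4 and 164 after cold (log2 -2.64 ± 0.35, SE, FDR 0.000544), and in AF16 went from 1257 and 1025 CPM to 372 and 164 (log2 -2.22 ± 0.35, SE, FDR 0.00133). The members ranked 6 and 51 completed the set, with log2 fold changes of -2.05 and -2.03 in AF16 and -1.82 and -2.15 in HK104. Over the 7, decreases ran from 4.08-fold to 9.63-fold in AF16 and from 3.17-fold to 6.23-fold in HK104.

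**Figure D2:**
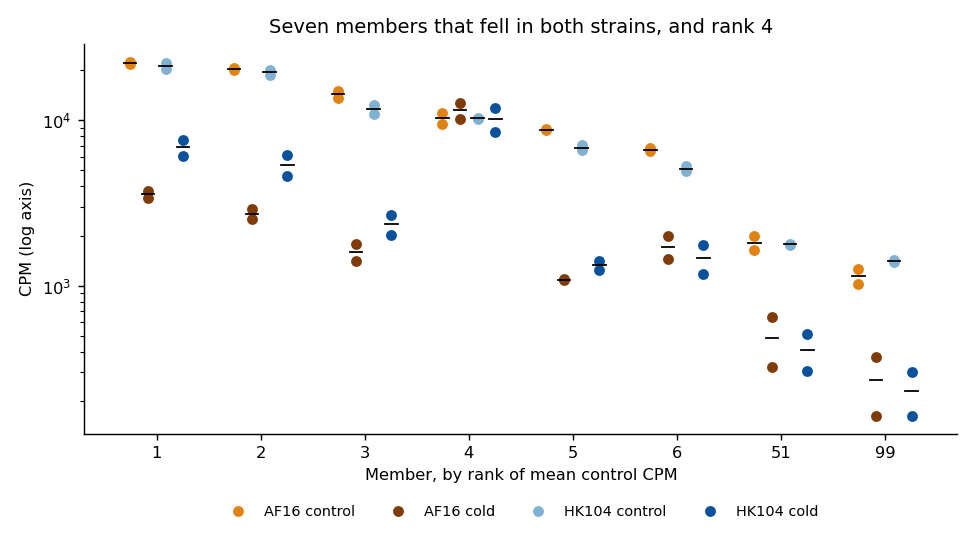
CPM in each parental library (log axis) of the 7 members that fell in both strains and of rank 4, placed by rank of mean control CPM. Points are libraries and bars the mean of 2, and at each rank but 4 every cold library lies below every control library of its strain, while rank 4 stays between 8494 and 12776 CPM in all 8.

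The member ranked 4, WBGene00036411, was the only one of the 6 highest not called in either strain and was singled out after its values were seen. In AF16 it had 11108 and 9517 CPM without cold and 10177 and 12776 with it, and in HK104 10370 and 10223, then 8494 and 11933. The groups overlapped within each strain. The fitted log2 response was 0.09 ± 0.31 (AF16) and -0.02 ± 0.31 (HK104), with FDR 0.877 and 0.983 (SE). With the genes around it lower, it was the highest gene of the cold libraries.

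Another 3 members fell in 1 strain by the test, each by less. The members ranked 41 and 66 were lower in AF16, with log2 fold changes of -0.80 (FDR 0.0345) and -1.14 (FDR 0.0389), and the member ranked 49 was lower in HK104, with -0.93 (FDR 0.0180). In the other strain the values were -0.73 (FDR 0.0514), -0.38 (FDR 0.483) and -0.67 (FDR 0.0663). A difference between the strains was not called for any of the 3.

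The remaining 90 members passed the test in neither strain. The 91 not called in AF16 had log2 fold changes from -0.86 to 0.39, of which 88 lay within 0.5 of zero, and the 92 not called in HK104 ran from -0.73 to 0.61, with 87 within 0.5. The highest value in AF16, 0.39, was at the member ranked 81 (FDR 0.271), and the highest in HK104, 0.61, at rank 100 (FDR 0.198). Over all 100 the median log2 response was -0.01 (AF16) and -0.03 (HK104), beside -0.06 and 0.01 over all genes tested. These medians sit at the centre that the scaling sets, and DESeq2 size factors moved the AF16 median to 0.16 and that of all genes tested to 0.11.

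**Figure D3:**
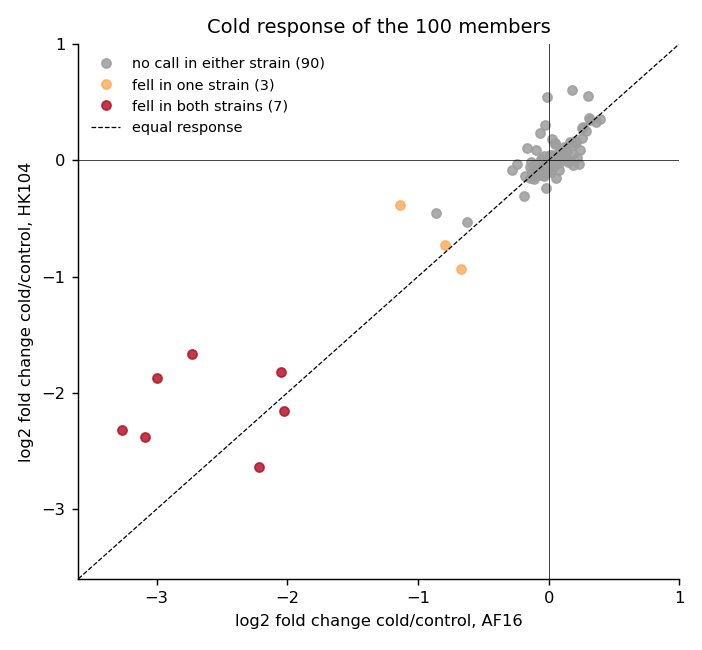
Log2 fold change of cold against control in HK104 (vertical) against AF16 (horizontal) for the 100 members, from the edgeR fit, with the dashed line marking an equal response. The 90 members called in neither strain sit around zero, and the 7 that fell in both lie between -3.27 and -2.03 in AF16 and between -2.64 and -1.67 in HK104.

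Without cold, 0 of the 100 members differed between HK104 and AF16 by edgeR's quasi-likelihood test, beside 7.01% of all genes tested (3.01% higher and 4% lower in HK104). With an unadjusted p below 0.05 there were 4, and the DESeq2 test called 1. The estimate of the spread comes from all 8 libraries, the wider cold replicates included. A test not passed does not show that the strains had equal levels. The nearest to the threshold was the member ranked 88, WBGene00041019, with 976 and 962 CPM in AF16 controls and 1792 and 1853 in HK104 controls (log2 0.91 ± 0.25, SE, FDR 0.0566). It was also singled out after its values were seen. After cold it had 1082 and 1038 CPM in AF16 and 1532 and 2039 in HK104 (log2 0.82 ± 0.25, SE, FDR 0.0551), so HK104 was higher in both conditions without overlap.

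The comparison of the strains after cold sets cold libraries against each other, while the estimate of the spread in the fit comes from all 8 libraries, the controls that chose the members included. By edgeR's quasi-likelihood test 2 of the 100 members differed, both higher in HK104, beside 12.7% of all genes tested (7.08% higher and 5.58% lower). With an unadjusted p below 0.05 there were 8 (5 higher, 3 lower), and the DESeq2 test called 6 (3 higher, 3 lower). The 2 were the highest members: WBGene00024796 was higher in HK104 by a log2 of 1.00 ± 0.26 (SE, FDR 0.0330) and WBGene00035047 by 1.04 ± 0.27 (SE, FDR 0.0286). Leaving out any 1 of the 4 control libraries gave 0 calls. Without the second AF16 cold library 6 members were called, all lower in HK104, and without the first HK104 cold library 1 was called, and in neither case these 2. Without the first AF16 cold library 3 were called, with 1 of these 2 among them. With DESeq2 size factors, or TMM scaling from genes outside the 100, 1 other member was called and these 2 were not. Both kept their call with the DESeq2 test, total counts, no filter on low counts, or the replicate number as a block. HK104 stayed above AF16 in all alternatives run, by a log2 of 0.73 to 1.10 at rank 1 and of 0.71 to 1.20 at rank 2. The lowest values came without the first HK104 cold library and the highest without the second.

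Whether the strains differed in the cold response itself was tested as an interaction. In this test 0 of 100 members passed, beside 0.496% of all genes tested (0.437% with a positive and 0.0592% with a negative difference). With an unadjusted p below 0.05 there were 3, the members ranked 1 to 3, and the DESeq2 test called 0. The response of WBGene00024796 was less negative in HK104 by a log2 of 1.06 ± 0.37 (SE, FDR 0.427) and that of WBGene00035047 by 1.12 ± 0.37 (SE, FDR 0.391). A p-value above the threshold with 2 libraries per group does not show that the strains responded alike.

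The members' share was also lower after cold in the hybrid. They held 20.6% of assigned reads in the hybrid control (95% Wilson interval 20.5 to 20.6) and 14.4% after cold (14.3 to 14.4). The 7 members that fell in both parents held 6.97% and then 1.504%, and the other 93 held 13.6% and 12.9%. The share of all members fell by 6.19 percentage points and that of the 7 fell by 5.47. The interval covers counting error only, and PCR reads are not independent molecules.

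All 7 were lower after cold in the hybrid, with log2 ratios of cold to control from -2.49 to -1.83 (TMM scaling, prior count 2, no test with 1 library per condition). WBGene00024796 went from 6318 to 1691 CPM of assigned reads, WBGene00035047 from 30650 to 6236 and WBGene00034777 from 14330 to 2631. The ratio of WBGene00024796 in the hybrid, -1.95, lay between those of AF16, -2.73, and HK104, -1.67, with the same prior count. Hybrid and parents were scaled separately. The hybrid lay between the parents for 4 of the 7. At ranks 5 and 6, outside the parental range, it stood at -2.34 and -1.83, with HK104 at -2.38 and -1.84. The hybrid also lay outside the parental range at the member ranked 51. Whether the count of 4 holds with other scalings was not tested. WBGene00034777 and WBGene00030260 had the lowest ratios of all members in the hybrid, 5.63-fold and 5.11-fold lower after cold.

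Over all members the hybrid's median log2 ratio was -0.24, and 80 of 100 lay below 0, beside a median of -0.03 and 54.1% over all genes tested. No member had a log2 ratio above 1, and 10 lay below -1, the 7 above and 3 with few assigned reads. Of the 13503 genes tested, 869 lay above 1 and 2842 below -1. The highest hybrid ratios were 0.49 at WBGene00023936, rank 69, which went from 2057 to 2988 CPM, and 0.44 at WBGene00030677, rank 50. In the parents WBGene00023936 had a log2 response of -0.01 (AF16, FDR 0.978) and 0.55 (HK104, FDR 0.177).

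How many reads of a member were assigned to an allele split the members into separate sets. In 44 members the hybrid control held 1.59% to 8.38% of the CPM of the parental controls, and in the other 56 it held 24.4% to 309%, with no member between. Among tested genes with at least 10 CPM in parental controls, 11.8% lay under 10%. The 44 held 8.98% of the parental control counts and 0.282% of the hybrid's assigned reads. They comprised 3 of the 10 highest members, 17 of the 40 ranked 11 to 50 and 24 of the 50 ranked 51 to 100, and none of the 7 that fell. WBGene00036411, first in the parents after cold, was one of them, with 1049 assigned reads (197 CPM) in the hybrid control. A read can be assigned to an allele only where it covers a difference between the strains, and where such differences lie was not analysed here. Only 48 members were among the 100 highest genes of the hybrid control, a value that this split touches.

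**Figure D4:**
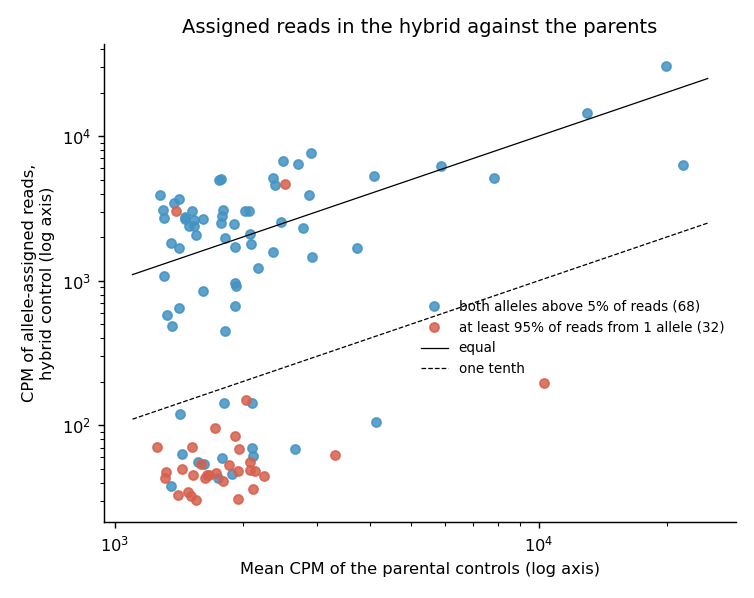
CPM of allele-assigned reads in the hybrid control (vertical) against mean CPM of the parental controls (horizontal) for the 100 members, both axes logarithmic, with lines for equal values and for 10% of the parental value. A gap separates the 44 members at 1.59% to 8.38% from the 56 at 24.4% to 309%, and 30 of the 32 members with at least 95% of reads from 1 allele (red) lie in the lower set.

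Allele balance was read as the AF16 share of assigned reads. In the 56 members with more assigned reads its median was 50.7% in the control (quartiles 49.0% and 53.5%) and 50.3% after cold (49.0% and 53.2%), and 38 of the 56 lay between 45% and 55% in both libraries. Over all 100 members the quartiles were wider, 36.3% and 66.5% in the control and 36.6% and 68.2% after cold. Of the 100, 39 lay between 45% and 55% in both. The genes below were not split by assigned reads as the 56 were, so they compare with all 100. The medians over the 8100 genes that reached 20 assigned reads in both libraries were 50.8% and 50.6%. Their quartiles were 45.8% and 56.3% in the control and 45.8% and 56.4% after cold. Of the 8100, 2739 lay between 45% and 55% in both libraries. The part of read depth in these spreads was not tested. WBGene00024796 had 16513 AF16 and 17194 HK104 reads in the control and 4969 and 5191 after cold, an AF16 share of 49.0% (95% Wilson interval 48.5 to 49.5) and 48.9% (47.9 to 49.9). Each of its alleles had a log2 cold-to-control value of -1.95, while the parents stood at -2.73 and -1.67.

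Among the other members that fell in the parents the AF16 share moved in both directions. WBGene00035047 had 80714 AF16 and 82801 HK104 reads in the control and 18087 and 19384 after cold, an AF16 share of 49.4% and then 48.3%. WBGene00034777 went from 60.6% to 59.1% and WBGene00034800 from 47.3% to 45.8%. WBGene00030260 went the other way, from 48.5% to 52.6%, and the member ranked 51 kept a high AF16 share, 76.2% and 76.9%. Over the 7 the log2 ratio ran from -2.53 to -1.85 for the AF16 allele and from -2.47 to -1.82 for the HK104 allele, and no AF16 share moved by more than 4.10 percentage points.

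**Figure D5:**
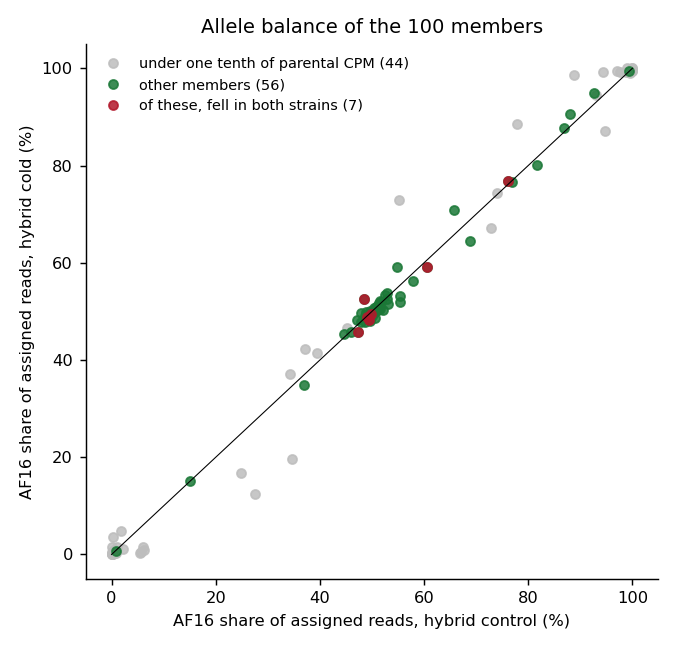
AF16 share of assigned reads after cold (vertical, percent) against control (horizontal, percent) in the hybrid for the 100 members, with the line of equal shares. Members with more assigned reads (green) and the 7 that fell (red) lie close to the line, most of them between 45% and 55%, and 30 of the 44 with few assigned reads (grey) have at least 95% of reads from 1 allele, with the others spread between.

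A Fisher exact test (two-sided) compared the allele counts of the hybrid libraries gene by gene, which compares these libraries and not the conditions. It called 19 of the 100 members with an adjusted p below 0.05, beside 5.54% of the 8100 genes. The 12 called among the 56 with more reads moved by 1.07 to 5.14 percentage points, and the other 7 were among the 44 with few reads. The part of read depth in the count of calls was not tested. The median absolute change was 0.851 points over the members and 3.79 over the 8100 genes. Of the 19, 11 moved toward HK104 and 8 toward AF16. Of the 7 members that fell in the parents, 3 were called: WBGene00035047 (adjusted p = 0.00549) and WBGene00034777 (adjusted p = 0.0210), both toward HK104, and WBGene00030260 (adjusted p = 3.37e-05), toward AF16. WBGene00024796 was not called (adjusted p = 1).

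The largest called changes of the allele ratio were in members with few assigned reads. WBGene00028209, rank 25, had 14 AF16 and 244 HK104 reads in the control and 1 and 263 after cold (adjusted p = 0.0130). WBGene00026823, rank 81, had 15 and 250 and then 2 and 328 (adjusted p = 0.00900), and WBGene00038931, rank 91, had 181 and 23 and then 138 and 2 (adjusted p = 0.0142). These members had 1359 to 2141 CPM in the parental controls and 38.2 to 49.7 CPM of assigned reads in the hybrid control.

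In 32 members at least 95% of assigned reads came from 1 allele, 12 with AF16 and 20 with HK104, beside 5.37% of the 8100 genes. Of these, 30 were among the 44 members with few assigned reads. WBGene00034301, WBGene00024877 and WBGene00025927 had 0 AF16 reads among 220, 240 and 253 in the control, which allows an AF16 share of up to 1.36%, 1.25% and 1.19%, and again 0 after cold. WBGene00026562 and WBGene00028446 had 0 HK104 reads among 173 and 256 in the control, which allows an HK104 share of up to 1.73% and 1.17%, and 0 after cold. WBGene00028153 had 0 HK104 reads among 261 in the control and 1 among 206 after cold. In the parental controls none of the 6 was called between the strains, and WBGene00034301 had 1878 CPM in AF16 and 1714 in HK104 (mean of 2).

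The remaining 2 had many assigned reads, and both were singled out after their values were seen. WBGene00028008, rank 17, had 24760 AF16 and 181 HK104 reads in the control (AF16 share 99.3%, 95% Wilson interval 99.2 to 99.4) and 24106 and 127 after cold. Its parental controls overlapped between the strains, with 2671 and 2379 CPM in AF16 and 2438 and 2589 in HK104. WBGene00041019, the member closest to a strain difference without cold, had 146 AF16 and 16037 HK104 reads in the control and 122 and 15739 after cold, an AF16 share of 0.902% and 0.769%. Its AF16 parent still had 969 CPM ± 10.0 against 1823 ± 43.3 in HK104 (controls, SD, n = 2 each), a smaller difference than between the hybrid's alleles. Whether the assignment of reads sets these shares was not tested.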

How the data were processed

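The members and the sets described were chosen with earlier results of these data known. Raw counts for the 8 parental libraries were deposited by the authors. A second deposited table of counts has 4 hybrid columns whose names give a strain and a treatment, taken here as reads assigned to each allele. They are not subsets of the parental libraries, since 633 to 829 genes in each have a higher count than the library so named. A blank line was left out, and 0 further columns of samples were unused. The submitters' processing notes name cutadapt, HISAT2 2.2.0, HTSeq 0.11.1 and edgeR, with no role or order. The build, annotation, use of strand and rule of allele assignment are not given in the sources used here, so near-identical or overlapping genes could share reads in ways not known here. The authors' deposited tables of test results were not used. Of 23175 IDs, 0 matched the 22727 genes of the CB4 gene table, so the planned lists by symbol were not run.

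The test was edgeR's quasi-likelihood F test (edgeR 4.0.16 with limma 3.58.1 in R 4.3.3), fitted to the 8 libraries with a coefficient per group, TMM scaling and filterByExpr (minimum count 10), which left 13503 genes. Benjamini-Hochberg adjustment ran within each of 5 comparisons, and an FDR below 0.05 was a call. The standard error was the absolute log2 fold change divided by the square root of F. DESeq2 1.42.0 and other scalings, filters, designs and member choices were alternatives. The edgeR fit was run on simulated counts, with changes set in the AF16 cold libraries and the same spread per gene in all libraries. Shares and CPM used column totals. Hybrid ratios used both alleles summed, TMM and a prior count of 2. Allele tests (SciPy 1.17.1) were limited to genes that reached 20 assigned reads in both hybrid libraries, and 0.5 was added to each count in allele ratios. Wilson intervals are at 95%, and a count of 0 allows up to 3 counts. With 2 libraries against 2, an exact permutation test (two-sided) cannot go below 0.333, so shares were not tested.

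Named genes were the 3 highest, the 2 largest falls in each strain among members called in both strains with the same sign (no member rose), members called between strains, the 3 highest and 3 lowest AF16 shares, the 3 largest called changes of allele ratio, the last member and the next gene, and the 2 largest rises and falls in the hybrid.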

Additional observations from a re-analysis of the deposited data

How the results depend on the processing

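There were 2 libraries per group and 1 per hybrid condition. Every member had at least 2599 counts in each parental library and no fewer than 132 allele-assigned reads in either hybrid library. The alternatives without the first or the second cold library of both strains, and with members of at least 10% of the parental CPM in the hybrid, were chosen after seeing the data. The 7 members that fell in both strains held their call and direction in 224 of 224 repeats, which refit the counts that picked them and are not independent. The difference between strains after cold at ranks 1 and 2 held its call in 15 of 32 repeats and its direction in all. The cause was not tested for any of the following changes. For the counts of calls in the alternatives, the share over all genes tested was not counted.

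Calls in AF16 after cold (9) became 27 without the first and 39 without the second cold library of both strains and 26 for the 200 highest genes, with 7 to 24 when 1 library was left out. In HK104 (8) they became 14, 43 and 28, with 7 to 11. Strain calls without cold (0) became 10 and 10 in those cold-library fits, 3 for the 200 highest, 2 with no filter, and 1 with the DESeq2 test, DESeq2 size factors, TMM from other genes, total counts or the 100 highest of AF16 controls, with 0 to 1 when 1 library was left out. After cold (2, both higher in HK104) they became 10 (6 higher, 4 lower) and 33 (4 higher, 29 lower), 4 for the 200 highest, 6 with the DESeq2 test or no filter, 1 with DESeq2 size factors or TMM from other genes and 4 with total counts, with 0 to 6 when 1 library was left out. Calls for the difference of responses (0) became 2 without the second cold libraries and stayed 0 to 0 when 1 library was left out.

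Libraries of different groups share a replicate number (correlations of same-numbered deviations 0.140 to 0.341 over the pairs of groups that share a strain or treatment). The first cold libraries of both strains also share the suffix of unstated meaning. Over the members alone, the log2 ratio of the first to the second cold library had a correlation of 0.681 between the strains, as a description across genes. With the replicate number as a block, calls were 9 in AF16, 9 in HK104, 1 between strains without cold, 4 after cold and 0 for the difference of responses.

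The AF16 median log2 response (-0.01) became 0.16 with DESeq2 size factors, 0.064 with TMM from other genes, 0.076 with no filter and 0.0695 with total counts, and -0.042 to 0.062 when 1 library was left out. The HK104 median (-0.03) became -0.29 without the second cold libraries, and -0.29 to 0.11 when 1 library was left out. Without the 10 highest members the change in share was 0.833 points in AF16 and -0.0603 in HK104, and -5.92 to -4.20 and -6.15 to -3.39 when 1 library was left out. In the hybrid the change in share (-6.19) became -5.24, -7.40 and -4.82 for the 50 highest, 200 highest and cold-chosen genes, and the median ratio (-0.24) became -0.15 for the last. The median AF16 share in the control (50.2%) became 49.9% for the 50 highest, 50.3% for cold-chosen genes and 50.7% without single-allele genes or with at least 10% of the parental CPM. After cold (50.01%) it became 50.4% for the 200 highest and 50.3% in those last cases. Fisher calls (19) became 10, 30 and 12 for the 50 highest, the 200 highest and members with at least 10% of the parental CPM.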
